A study of Mus musculus with 4 samples.

Results

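The genes examined here were 10 genes of vascular endothelial growth factor (VEGF) and angiopoietin signaling, taken by gene symbol from lists of genes with ChIP-seq p-values in a study of Foxp1 in newborn mouse kidney tubular cells. They were the ligand genes Vegfa, Vegfb, Vegfc and Angpt1, the receptor genes Flt1, Kdr, Flt4 and Tek, and the coreceptor genes Nrp1 and Nrp2. They are 10 of 21900 protein-coding genes of the mouse gene table. At a p-value under 0.05, 6 of the 10 were in the control list, where 29.0% of all protein-coding genes were, and 3 were in the Foxp1KspKO list, where 20.9% were. The 3 genes of the Foxp1KspKO list were also in the control list; 13.2% of protein-coding genes were in both. The control list alone held 3 members (15.7% of protein-coding genes), the Foxp1KspKO list alone 0 (7.63%), and 4 members were in neither (63.4%).

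The study set out to find direct targets of Foxp1, a forkhead transcription factor, in the distal tubule. Neonatal littermate control mice and Foxp1KspKO mice each gave 1 ChIP and 1 input library from collagenase-digested kidney passed through a sieve, and the labels give neither the alleles of the controls, the sex, nor the number of animals pooled. Ksp in the name of the knockout stands for kidney-specific cadherin, encoded by Cdh16; promoters of this gene are used to direct recombination to renal tubule epithelium rather than vessels. In the labels' antibody field the control ChIP carries rabbit IgG and only the Foxp1KspKO ChIP carries the Foxp1 antibody, whereas both descriptions begin with FoxP1, so libraries are called here by the genotype of their titles and no direction below rests on a settled antibody. With 1 library per genotype there is no replicate spread and no test of a difference, and the depth behind the p-values is unknown. The targeted gene Foxp1 and Cdh16 were in neither list. The lists hold ChIP p-values only and could not check the genotype labels in either case.

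VEGF ligands are secreted proteins that drive the growth and upkeep of blood and lymphatic vessels. They act through receptor tyrosine kinases on endothelial cells, helped by neuropilins, which also bind class 3 semaphorins. Angiopoietin 1 stabilises vessels through the receptor tyrosine kinase encoded by Tek. In the kidney, podocytes and tubule epithelium make VEGF-A, while the capillaries of the glomerulus and those around the tubules carry its receptors.

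The lists hold 1 p-value per gene and no position, so the place of any ChIP signal within or near a gene is not known. The start regions of the members are shown because promoters are one place a transcription factor binds, and because listed and unlisted members can be read side by side in them. Promoter windows from RefSeq (GRCm38.p6) matched 9 of the 10 members by symbol, all but Angpt1, and Vegfa had a further window at an internal start, which gives 10 windows. The 250 bases before the annotated start are printed 5′ to 3′ on the gene's strand for 4 members of the control list (Nrp2, Nrp1, Kdr and Vegfa) and for 2 members in neither list (Vegfc and Tek). For Kdr, Nrp1 and Tek the windows lie partly or wholly inside the outermost bounds of the gene, which has starts farther upstream. Capitals mark the GC box GGGCGG and the forkhead core TGTTT, each on either strand. The windows of Flt1, Vegfb and Flt4 are not printed. Flt4 is the only member in neither list whose window lacks this core, so the printed windows alone do not stand for all members.
Nrp2, chr1:62703067-62703316, plus strand: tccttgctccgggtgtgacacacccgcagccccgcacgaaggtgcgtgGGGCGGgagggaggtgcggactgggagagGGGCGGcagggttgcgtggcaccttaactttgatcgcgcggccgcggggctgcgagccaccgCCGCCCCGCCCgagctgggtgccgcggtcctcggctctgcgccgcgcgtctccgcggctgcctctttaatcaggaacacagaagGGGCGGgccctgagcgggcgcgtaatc
Nrp1, chr8:128358823-128359072, plus strand: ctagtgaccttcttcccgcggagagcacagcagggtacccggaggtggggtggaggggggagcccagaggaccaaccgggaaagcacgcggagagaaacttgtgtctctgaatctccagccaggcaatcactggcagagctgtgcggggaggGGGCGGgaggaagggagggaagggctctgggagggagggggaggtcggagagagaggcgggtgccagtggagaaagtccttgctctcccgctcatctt
Kdr, chr5:75978456-75978705, minus strand: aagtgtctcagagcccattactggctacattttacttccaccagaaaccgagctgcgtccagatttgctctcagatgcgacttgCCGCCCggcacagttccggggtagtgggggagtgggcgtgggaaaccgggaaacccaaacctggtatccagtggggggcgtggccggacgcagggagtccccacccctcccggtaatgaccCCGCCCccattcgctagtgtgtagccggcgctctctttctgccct
Vegfa, chr17:46032378-46032627, minus strand: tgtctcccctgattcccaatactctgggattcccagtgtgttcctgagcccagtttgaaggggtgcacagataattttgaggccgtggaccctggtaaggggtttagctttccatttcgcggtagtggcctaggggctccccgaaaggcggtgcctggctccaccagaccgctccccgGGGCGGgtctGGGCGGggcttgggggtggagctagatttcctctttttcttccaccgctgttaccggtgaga
Vegfc, chr8:54077282-54077531, plus strand: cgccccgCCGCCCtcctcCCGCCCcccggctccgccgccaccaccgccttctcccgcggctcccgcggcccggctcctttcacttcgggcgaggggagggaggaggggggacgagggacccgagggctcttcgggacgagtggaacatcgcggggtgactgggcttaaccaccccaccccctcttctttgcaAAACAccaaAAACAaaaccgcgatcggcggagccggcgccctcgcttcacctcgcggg
Tek, chr4:94739039-94739288, plus strand: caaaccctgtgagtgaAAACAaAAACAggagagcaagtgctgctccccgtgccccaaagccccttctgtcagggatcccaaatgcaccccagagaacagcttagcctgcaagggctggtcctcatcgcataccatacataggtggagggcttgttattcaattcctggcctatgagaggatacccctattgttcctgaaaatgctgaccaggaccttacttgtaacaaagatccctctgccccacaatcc

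None of the 10 member windows held a full forkhead match, searched on both strands as TGTTTAC or as TGTTTAT and likewise as TATTTAC or else as TATTTAT, against 13.6% of all 32851 windows cut the same way. Within the first pair of these words lies the shorter core TGTTT, which was found in 3 member windows against 46.4% of all windows. Those 3 windows belonged to Vegfc, Tek and Vegfb, all outside both lists, while Flt4, also outside both, had none. Over all windows the core was in 40.8% of those of control-listed genes and in 47.8% of the others. In the Vegfc sequence above the core stands on the reverse strand as AAACA with first bases at −58 and −49 from the start, and in the Tek sequence at −234 and −228. A match describes letters and not a bound site, and the lack of one covers these bases only.

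Member start regions were rich in G and C. The GC box was in 9 of the 10 windows, with Tek the exception, against 32.7% of all windows. It was in 50.4% of all windows of control-listed genes and in 28.4% of the others. The Nrp2 sequence held 5 GC boxes and 72.4% G and C, and the Nrp1 sequence 1 GC box and 64.4%. Among unlisted members, Vegfb had 76.4% and Vegfc 71.6%, so G and C content did not separate listed from unlisted members, while Tek was lowest with 51.2%. Over all windows the median was 58.0% for genes of the control list and 51.2% for the others, and for the Foxp1KspKO list 58.4% and 51.6%. The core of the hypoxia response element, ACGTG or GCGTG on either strand, was in 6 member windows against 38.6% of all windows. Its share was 49.6% in all windows of control-listed genes and 35.9% in the others. The Kdr sequence had it at −131 and −89, and the internal window of Vegfa at −218 and −211.

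The coreceptor genes had the lowest p-values of all members, and were listed for the control ChIP only. Nrp2, which encodes a neuropilin of lymphatic vessels and veins that binds VEGF-C and semaphorins (chromosome 1, 62703317 to 62818692), had a p-value of 1.17e-08 with the control library in the authors' deposited table and was not listed for the Foxp1KspKO ChIP. Nrp1, whose product binds VEGF-A and strengthens signaling through the receptor encoded by Kdr (chromosome 8, 128358591 to 128505476), had 1.27e-06 with the control library in the authors' deposited table and was likewise not listed for the Foxp1KspKO ChIP. Both were among the genes that the authors list as unique to the control, which hold 15.1% of protein-coding genes and 3 members. In the control list 11.5% of genes had a lower p-value than Nrp2 and 19.3% a lower one than Nrp1, so neither stood at the head of the list. A gene that is not listed carries no p-value, and the size of the difference between the libraries is therefore not known for Nrp1 and Nrp2.

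Of the 4 receptor genes, Kdr and Flt1 were listed and Flt4 and Tek were not. Kdr encodes VEGFR2, the main signaling receptor for VEGF-A in endothelium (chromosome 5, 75932827 to 75979072). In the authors' deposited table Kdr had 4.25e-06 with the control library and 0.00451 with the Foxp1KspKO library. Flt1 encodes VEGFR1, which binds VEGF-A tightly, signals weakly and in its soluble form acts as a decoy (chromosome 5, 147561604 to 147726438). Flt1 had 0.00576 with the control library in the authors' deposited table, the highest control p-value among listed members, and was in the unique list and not in the Foxp1KspKO list. Flt4, which encodes the lymphatic receptor VEGFR3 for VEGF-C (chromosome 11, 49609679 to 49652739), and Tek, which encodes the angiopoietin receptor TIE2 (chromosome 4, 94739086 to 94874976), were not listed for either library.

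Of the 4 ligand genes, Vegfa and Angpt1 were in both lists and Vegfb and Vegfc in neither. Vegfa encodes the principal angiogenic ligand of the family (chromosome 17, 46016993 to 46032377). In the authors' deposited table Vegfa had 5.81e-04 with the control library and 0.00467 with the Foxp1KspKO library. Angpt1 encodes the activating ligand of the Tek product (chromosome 15, 42424667 to 42676977) and had 4.04e-04 with the control library and 0.0401 with the Foxp1KspKO library of the authors' deposited table, the second value close to the limit of the lists. Vegfb, which encodes a ligand of VEGFR1 (chromosome 19, 6982472 to 6987651), and Vegfc, the lymphatic ligand gene (chromosome 8, 54077532 to 54186454), were not listed. By ligand and receptor, Vegfa and Kdr were both in both lists, while Flt1, the other receptor gene for VEGF-A, was in the control list only. Vegfb was in neither list although its receptor gene Flt1 was in the control list, Angpt1 was in both lists and its receptor gene Tek in neither, and Vegfc and Flt4 were both absent.

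**Figure D1:**
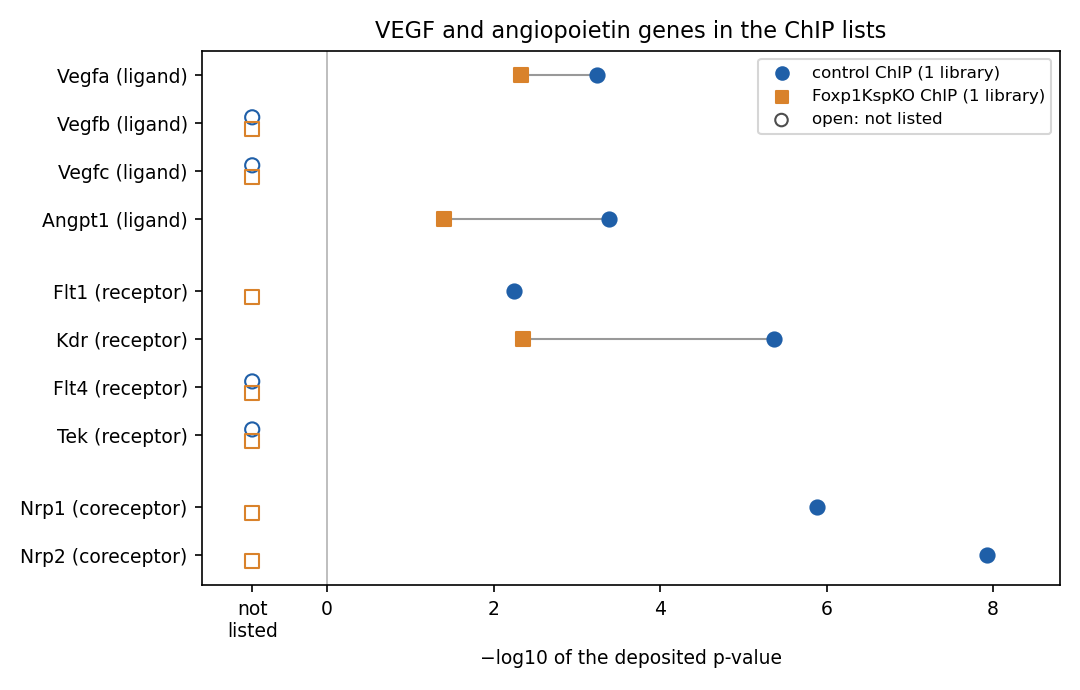
The −log10 of the deposited p-value (x axis) is drawn for each of the 10 members, with filled circles for the control ChIP, filled squares for the Foxp1KspKO ChIP and open marks for genes not listed, 1 library each. The coreceptor genes Nrp2 and Nrp1 lie farthest right at 7.93 and 5.89 in the control ChIP with no Foxp1KspKO value, and the 3 members with values for both libraries have the larger one in the control ChIP.

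In all 3 members with values for both libraries the control p-value was the lower one, as it was in 72.2% of the 2900 protein-coding genes in both lists. The difference in −log10 p, control minus Foxp1KspKO, was 3.03 for Kdr, 2.00 for Angpt1 and 0.91 for Vegfa. Across the 2900 genes its median was 1.36 and its middle 50% ran from −0.12 to 4.00, so all 3 members lay inside the range common to shared genes. Kdr exceeded 67.9% of the shared genes in this difference, Angpt1 58.6% and Vegfa 43.9%.

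Because p-values in the control list were lower as a whole, with a median −log10 p of 2.95 against 2.27 for protein-coding genes of the Foxp1KspKO list, the place within each list gives a second view. Vegfa held nearly the same place in both, with 44.8% of control genes and 48.0% of Foxp1KspKO genes having a lower p-value. Kdr stood higher in the control list, with 22.7% ahead of it against 47.4%. For Angpt1 the figures were 42.4% and 92.3%. The lists differ in length, with 6799 and 4953 genes, and a place within a list is no measure of change; in −log10 p the difference for Angpt1 was smaller than that for Kdr. Flt1 had 64.9% of the control list ahead of it.

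**Figure D2:**
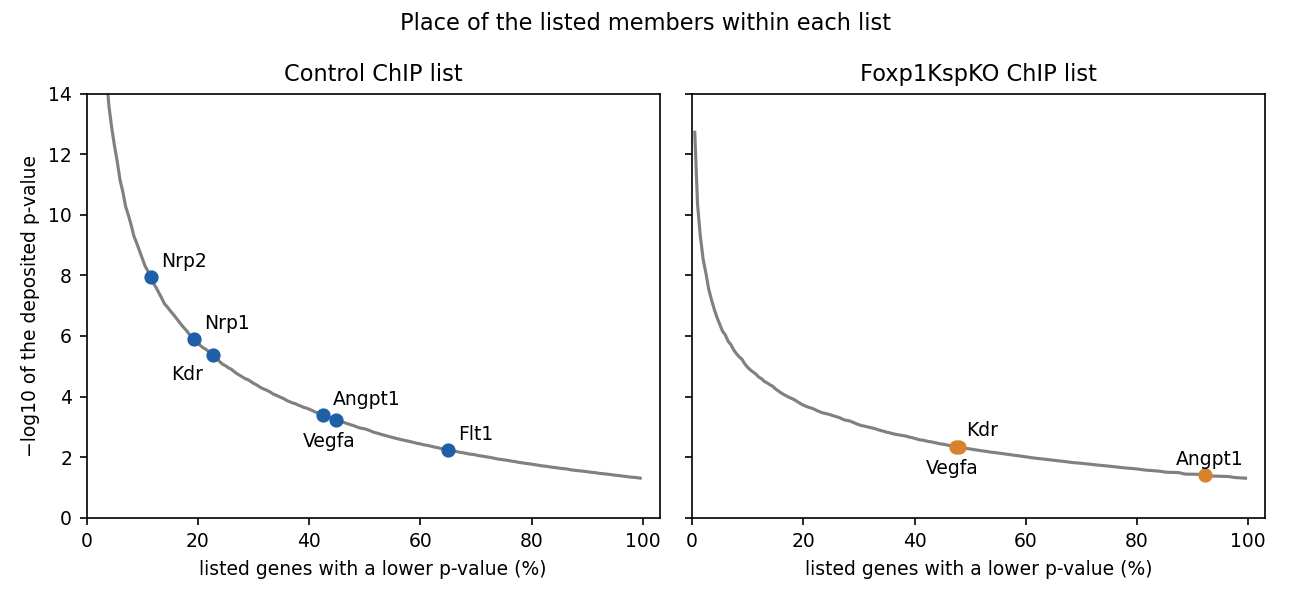
Each grey curve gives the −log10 p of the deposited list (y axis) against the percentage of listed genes with a lower p-value (x axis), on the left for the control ChIP and on the right for the Foxp1KspKO ChIP; the y axis ends at 14 and the strongest genes lie beyond it. The 6 members of the control list spread from 11.5% for Nrp2 to 64.9% for Flt1, and in the Foxp1KspKO list Kdr and Vegfa lie near the middle and Angpt1 near the end.

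With stricter limits the members of the Foxp1KspKO list were lost first. That list also lost a larger part of all its protein-coding genes than the control list did. Under a p-value of 0.01 the control list held 6 members (21.1% of protein-coding genes) and the Foxp1KspKO list 2 (12.6%). Under 0.001 the numbers were 5 (14.3%) and 0 (6.62%), and under 0.0001 they were 3 (10.2%), namely Nrp2, Nrp1 and Kdr, and 0 (3.63%). Benjamini-Hochberg adjustment of the deposited p-values over all protein-coding genes left 6 members (21.3%) and 2 (10.3%) at an adjusted p under 0.05.

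Among the other 2899 protein-coding genes in both lists, those nearest to Kdr in −log10 p over the 2 ChIP libraries were Hoxc4, at a distance of 0.0385, and Abhd13 and Khnyn, both at 0.0787. In the authors' deposited table Hoxc4, a homeobox gene, had 3.98e-06 with the control library and 0.00479 with the Foxp1KspKO library. In the authors' deposited table Abhd13 and Khnyn had identical values, 4.57e-06 and 0.00382. Likeness over 2 values is a description of level only. Some members also shared their exact p-value with other genes: Nrp2 and Flt1 with 2 others each and Angpt1 with 1 in the control list, and Vegfa with 2 in the Foxp1KspKO list.

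Most members are long genes, and the share of genes listed was highest among the longest genes. Protein-coding genes were ordered by length and split into 10 equal groups. The control share did not rise steadily with length, with 27.3% in the shortest group and 21.7% in the next. The longest group, from 109 kb upward, held 6 of the 10 members, and 39.8% of that group had a control p-value and 25.3% a Foxp1KspKO one. Of those 6 members, the control list held 4 (Nrp1, Nrp2, Flt1 and Angpt1) and the Foxp1KspKO list held 1, Angpt1. Vegfc, at 109 kb, and Tek, at 136 kb, were in the same group and in neither list. Kdr (46.2 kb) and Flt4 (43.1 kb) fell in the same group, in which 32.9% of genes were in the control list, and only Kdr was listed. Vegfa, at 15.4 kb, was the shortest listed member, in a group where 25.2% of genes had a control p-value and 19.6% a Foxp1KspKO one. How much of the members' count goes with their length was not tested.

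**Figure D3:**
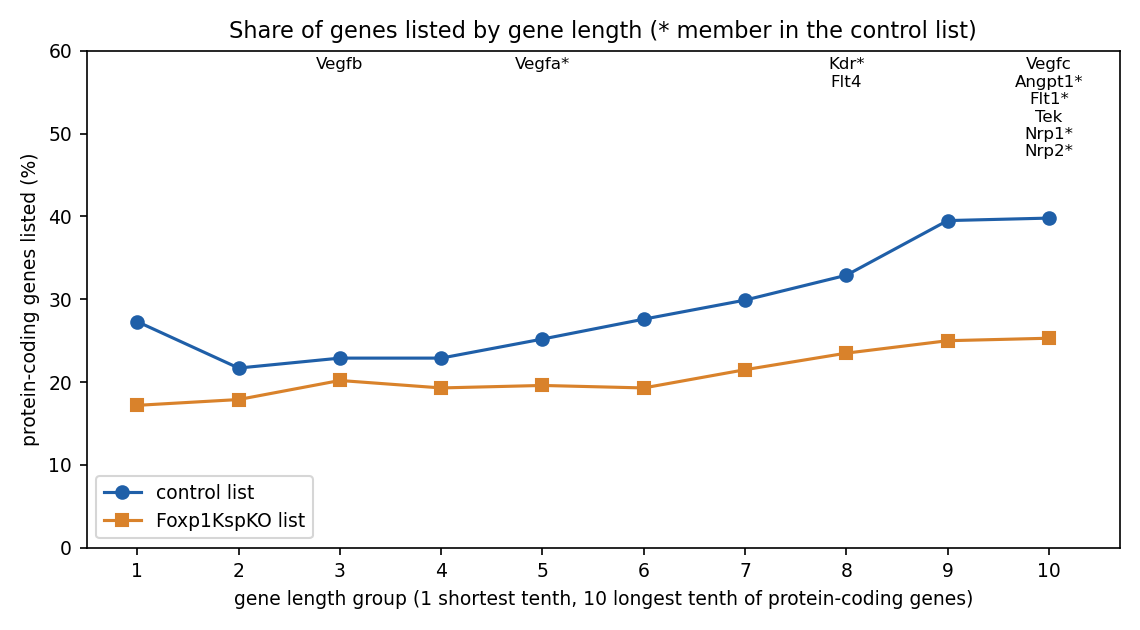
The percentage of protein-coding genes listed (y axis) is plotted for 10 equal groups of genes ordered by length (x axis), with circles for the control list and squares for the Foxp1KspKO list; member names stand above their group, with an asterisk for those in the control list. The share in the control list is 39.8% in the longest group, which holds 6 members, 22.9% in the group of Vegfb and 27.3% in the shortest group.

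As the lists give no positions, the nearest protein-coding gene on each side of every member, by order of gene starts, was looked up. Of the 6 members in the control list, 5 had a listed neighbor there, and of the 4 unlisted members 1 had. Over all protein-coding genes a listed neighbor was found for 56.3% of listed and 45.0% of unlisted genes. In the Foxp1KspKO list 2 of the 3 listed and 3 of the 7 unlisted members had one, against 39.7% and 36.3% of all genes. Flt1 lay 13.1 kb from Pan3, which encodes a subunit of an mRNA deadenylation complex and had 1.16e-15 with the control library and 0.00417 with the Foxp1KspKO library of the authors' deposited table. Pan3 thus had a far lower control p-value than Flt1 itself, and whether the Flt1 value comes from signal near Pan3 was not tested. Pomp, on the other side of Flt1, had 2.67e-04 with the control library in the authors' deposited table.

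The nearest protein-coding gene on one side of Nrp1 and of Nrp2 belongs to the Par3 polarity family. Pard3 lay 746 kb from Nrp1, and Pard3b lay 61.0 kb from Nrp2. In the authors' deposited table Pard3 had 0.00271 in the control ChIP, and Pard3b had 0.00122 with the control library and 0.0365 with the Foxp1KspKO library. On the other side of Nrp1, at 180 kb, Itgb1, the integrin beta 1 gene, had 1.52e-09 with the control library and 0.00346 with the Foxp1KspKO library of the authors' deposited table. Kdr had no neighbor in the control list, and Kit, the stem cell factor receptor gene next to it at 276 kb, had 0.00177 with the Foxp1KspKO library only in the authors' deposited table. The neighbor of Vegfa at 283 kb, 1600014C23Rik, had 0.0339 with the control library and 1.09e-04 with the Foxp1KspKO library of the authors' deposited table. Beside Angpt1, at 344 kb, Rspo2, which encodes a Wnt signal enhancer, had 0.00133 with the control library in the authors' deposited table, and beside the unlisted Vegfc, at 334 kb, Spcs3 had 4.25e-10 there. Neither neighbor of Vegfb, Flt4 or Tek was in either list.

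Further ligands and partners of these receptors were read from a list of 14 genes. The control list held 6 of the 14 (42.9%, against 29.0% of all protein-coding genes), the Foxp1KspKO list 3 (21.4%, against 20.9%), and 1 gene was in both, where 13.2% of all genes were. The semaphorin genes Sema3c and Sema3a, whose products bind neuropilins, had 1.76e-05 and 3.33e-04 with the control library in the authors' deposited table and were not in the Foxp1KspKO list. Plxnd1, which encodes the plexin that relays semaphorin signals in endothelium, had 0.00523 with the control library in the authors' deposited table, also without a Foxp1KspKO value. The unique list held 4 of the 14, against 15.1% of all protein-coding genes. They were these 3 genes and Flrt2, the last named after its value was seen. Sema3f, which encodes a ligand of the Nrp2 product, showed the opposite pattern, at 0.00290 with the Foxp1KspKO library of the authors' deposited table and no control value.

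Vegfd, which encodes the other lymphatic ligand, had 0.00849 with the control library in the authors' deposited table; it was absent from the Foxp1KspKO list and also from the unique list. Hspg2, the gene of the basement membrane proteoglycan perlecan, was the 1 partner in both lists, at 0.0305 with the control library and 0.00193 with the Foxp1KspKO library of the authors' deposited table. Of the angiopoietin genes outside the members, Angpt4, named after its value was seen, had 0.0278 with the Foxp1KspKO library of the authors' deposited table, and Angpt2 was in neither list.

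Signal transducers downstream of the VEGF receptors numbered 11 of 28 in the control list and 5 of 28 in the Foxp1KspKO list, with 4 in both. These are 39.3% and 17.9% of the group, against 29.0% and 20.9% of all protein-coding genes, of which 13.2% were in both lists. The unique list held 8 of the 28, against 15.1% of all protein-coding genes. Among the 8 was Nfatc1, although it also had a Foxp1KspKO value, so the unique list is not limited to genes missing from the other library. Nfatc1, a calcium-regulated transcription factor gene, led them at 1.24e-21 with the control library and 3.52e-04 with the Foxp1KspKO library of the authors' deposited table. Fyn, a Src family kinase gene, had 9.79e-08 and 1.33e-04 in the authors' deposited table for the control and Foxp1KspKO ChIP. Nck1, an adaptor gene, and Ppp3r1, the gene of a calcineurin subunit, had 2.82e-06 and 4.65e-04 with the control library in the authors' deposited table and no Foxp1KspKO value. Grb2, also an adaptor gene, had 0.00114 with the control library and 0.0319 with the Foxp1KspKO library of the authors' deposited table. The heat shock protein gene Hspb1 went the other way, at 0.0118 with the control library and 2.25e-04 with the Foxp1KspKO library of the authors' deposited table.

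Genes of oxygen sensing and other regulators of Vegfa were listed at 9 of 16 in the control list and 8 of 16 in the Foxp1KspKO list, 6 of them in both, against 29.0%, 20.9% and 13.2% of all protein-coding genes. Zfp36l1, whose product promotes decay of Vegfa mRNA, had 3.15e-94 and 2.82e-14 with the control and Foxp1KspKO libraries of the authors' deposited table. Cited2, which encodes a competitor of hypoxia-inducible factors for their coactivator, had 3.81e-32 with the control library and 1.19e-04 with the Foxp1KspKO library of the authors' deposited table. Arnt, the gene of the shared subunit of the hypoxia-inducible factors, had 8.57e-13 and 1.19e-05 in the same order in the authors' deposited table. Sp1, whose product binds the GC box, had 3.80e-17 with the control library in the authors' deposited table and no Foxp1KspKO value. Egln2, a prolyl hydroxylase gene, had its lower value with the Foxp1KspKO library, 9.68e-05 against 0.0491 with the control library in the authors' deposited table. Hif1a and Vhl were in neither list.

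The endothelial markers outside the members numbered 3 of 21 in the control list (14.3%, against 29.0% of all protein-coding genes) and 4 of 21 in the Foxp1KspKO list (19.0%, against 20.9%). The 6 defining markers Pecam1, Cdh5, Emcn, Eng, Erg and Fli1 were in neither list. Those listed encode transcription factors. Ets1 had 8.84e-11 with the control library and 0.00970 with the Foxp1KspKO library of the authors' deposited table, and Tal1 had 8.76e-07 and 0.0153 in the same order in the authors' deposited table. Sox17 had 8.47e-05 with the control library in the authors' deposited table, while its relatives Sox7 and Sox18 had 0.0260 and 0.0316 with the Foxp1KspKO library of the authors' deposited table. A listing is a ChIP p-value and not expression, so these counts do not give the cell types in the preparation.

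The remaining cell type lists were small. Their counts stand beside the same shares of all protein-coding genes, 29.0% and 20.9%, and at these sizes 1 gene moves a share widely. Podocyte markers numbered 3 of 6 in the control list and 4 of 6 in the Foxp1KspKO list. Wt1, a regulator gene of podocytes that was also in the list of Vegfa regulators, had 2.38e-05 and 0.0218 with the control and Foxp1KspKO libraries of the authors' deposited table. Podxl, the gene of a surface sialomucin of podocytes, went the other way in the authors' deposited table with 0.0102 and 0.00651, and the slit diaphragm gene Nphs1 had a Foxp1KspKO value only, 0.0212. Pericyte, smooth muscle and fibroblast markers numbered 2 of 10 and 3 of 10, and of these Pdgfra, a receptor gene on the same chromosome as Kdr and one gene beyond Kit, had 0.00166 with the control library and 0.00373 with the Foxp1KspKO library of the authors' deposited table. Dcn and Pdgfrb, of fibroblasts and pericytes, had Foxp1KspKO values only in the authors' deposited table, 0.0151 and 0.0366, and the smooth muscle gene Myh11 had a control value only, 0.0328. Kidney tubule markers numbered 2 of 10 in the control list, Pax8 and Slc12a1, and 0 of 10 in the Foxp1KspKO list. Pax8 had 0.00107 and Slc12a1 0.0475 with the control library in the authors' deposited table, the second close to the limit of the lists.

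**Figure D4:**
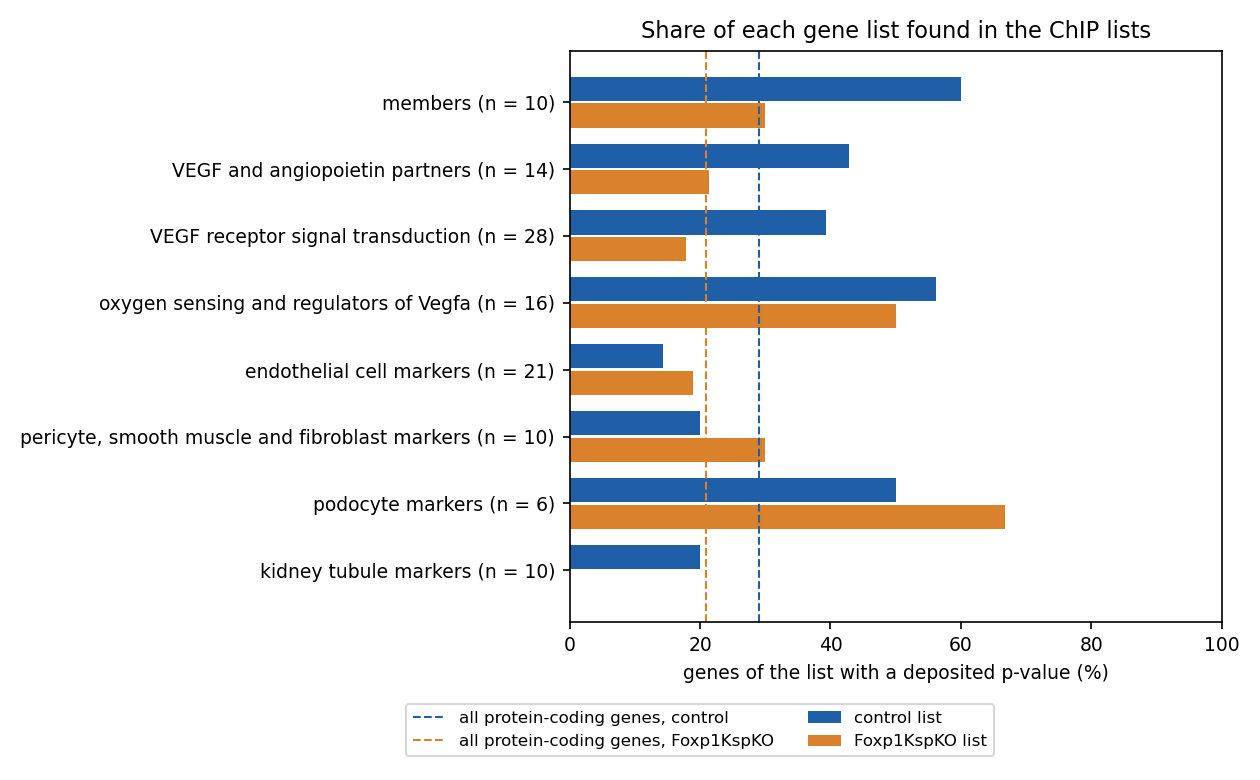
Bars give the percentage of each gene list (y axis, with its number of genes) that had a deposited p-value for either library (upper bar control, lower bar Foxp1KspKO), and dashed lines give the same over all protein-coding genes, 29.0% and 20.9%. The members had 6 of 10 genes in the control list and 3 of 10 in the Foxp1KspKO list, the signal transducers 11 and 5 of 28, and the endothelial markers 3 and 4 of 21.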

How the data were processed

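ChIP-seq was done on newborn mouse kidney tubular cells with 4 libraries, 1 ChIP and 1 input for each genotype; per the labels' protocols chromatin was sheared to 150 to 300 bp. Tools named without a role in the submitters' processing notes are Bowtie2, Trimmomatic, FastQC, edgeR and deepTools, and builds are GRCm38 and mm10. The authors deposited 3 gene lists with 1 p-value per gene, all under 0.05; how they were tested or adjusted is not given in the sources used here, and read depth is unknown. The first list was taken as the control ChIP and the second as the Foxp1KspKO ChIP from their sheet names.

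Members were matched by symbol and background counts by NCBI gene number over 21900 protein-coding genes of the RefSeq table for GRCm38.p6, with the lowest p-value per gene, in Python 3.11.15 with pandas 2.3.3. Of the code, the Benjamini-Hochberg adjustment and the choice of the lowest p-value per gene were tested on simulated p-values. Coordinates are 1-based and describe genes. The 7 gene lists beside the members, with 104 distinct genes, and the members were chosen with earlier results of these data known. Genes named are the members, their nearest neighbors, up to 6 genes of each list with the lowest p-value, 3 genes nearest to Kdr, Foxp1 and Cdh16; absent genes named from the lists were chosen after their values were seen. A gene that this rule names is left out of the text. Listing was also counted at p-values under 0.01, 0.001 and 0.0001, after Benjamini-Hochberg adjustment, by gene number, and with lists of equal length.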

Additional observations from a re-analysis of the deposited data

How the results depend on the processing

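The counts rest on single libraries, and none was left out. No paired analysis was possible because each group holds 1 library and the result comes from no test. With listing restricted to a p-value under 0.001, the control list held 5 members and the Foxp1KspKO list 0, with 5 in the control list only and 0 in both. Under 0.0001 the control list held 3 members, the Foxp1KspKO list 0, and 0 were in both. At a p-value under 0.01 the control list held 6 and the Foxp1KspKO list 2. Benjamini-Hochberg adjustment over 21900 protein-coding genes, with unlisted genes at the highest value, also gave 6 and 2, Angpt1 dropping out of the Foxp1KspKO list with an adjusted p of 0.208 and Kdr and Vegfa staying just inside at 0.0456 and 0.0468. Matching by gene number changed none of the member counts. Taking the highest of repeated p-values changed none of the member values. With 0 members having more than 1 row in a list, that second outcome was fixed beforehand and says nothing about the members. The control list shortened to the 4953 genes of the Foxp1KspKO list, an alternative chosen after the data were seen, also held 6 members. Its cut fell at a p-value of 0.0105. The 6 members under 0.01, where 21.1% of protein-coding genes were, therefore had to remain, and this count adds nothing to the one at 0.01.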
